A study of Mus musculus with 11 samples.

Results

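Mouse CD4 T cells that carried the R397W form of the transcription factor FoxP3 were compared with the same kind of cells carrying wild-type (WT) FoxP3, over all probe sets of the deposited array table. By their titles, 2 arrays belonged to R397W and 3 to WT, 5 of the 11 arrays in the series; the others were 3 arrays of mock cells, which received the empty MIGR1 retroviral vector, and 3 of cells with A384T FoxP3. In all 4 groups, naive CD4 T cells (CD25-, CD45RB high) of BALB/cA mice, from lymph nodes and spleen, were activated with anti-CD3e at 0.5 µg/ml, recombinant IL-2 at 10 ng/ml and spleen cells of the same strain that had been freed of T cells and irradiated with 20 Gy. They were spin-infected 24 h later, kept in IL-2, and sorted for CD4 and high green fluorescent protein on day 7. WT and mutant FoxP3 were each carried by MIGR1, so FoxP3 was expressed from a retrovirus in activated conventional T cells, and the mock cells carried vector and activation without it. No source used here gives the age of the mice. The labels do not say that arrays of a group came from separate mice or cultures, so p-values reflect the spread among these arrays alone, and that spread may be technical.

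FoxP3 is the forkhead transcription factor that defines regulatory T cells (Treg cells), the CD4 cells that restrain other lymphocytes. It binds DNA through its forkhead domain together with other factors, and in Treg cells it is found at genes that it raises, such as those for the IL-2 receptor and inhibitory receptors, and at genes that it holds down. Inherited defects in it cause the autoimmune disease IPEX, and R397W and A384T are forkhead substitutions known from that disease. The comparison asks at which genes cells with R397W differ from cells with the wild-type factor.

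Each value is a log2 difference that had been centred probe set by probe set on the median of mock, so 0 is the mock level, levels of different genes cannot be compared, and the labelled cell type could not be checked by the level of its markers. Differences are given as log2 R397W minus WT ± SE from limma with all 11 arrays, and called means a Benjamini-Hochberg adjusted p under 0.05 over 45037 probe sets. Array medians lay between -0.016 and 0.0022, and the number of arrays limits the precision (median SE 0.155). The Foxp3 probe set 1420765_a_at read -0.066, -0.0038 and 0.11 on the WT arrays and -0.19 and -0.39 on the R397W arrays, and its difference of -0.30 ± 0.17, adjusted p = 0.642 did not pass the test (95% interval -0.67 to 0.065). It lay near the mock level on all WT arrays too. No source used here says whether these probes match the transduced cDNA, so it checks neither the labels nor the amount of FoxP3 in the cells.

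With R397W, 245 genes were lower and 196 higher than with WT FoxP3, led by a fall of 77.5-fold in Gpr83, a G protein-coupled receptor known as a Treg marker, and a rise of 13.6-fold in Atp8b4, a lipid flippase of the ATPase family. Among the lower genes were the IL-2 receptor chains Il2ra and Il2rb, the feedback inhibitors Cish and Socs2, the TNF receptor family members Tnfrsf4, Tnfrsf9 and Tnfrsf18, and the inhibitory receptor Ctla4. Among the higher genes were the chemokine receptor Cxcr6 and the IL-18 receptor chains Il18r1 and Il18rap. At these genes, the R397W arrays lay near the mock arrays. The called genes were 1.35% (lower) and 1.08% (higher) of 18193 genes tested, each read through the probe set with the largest SD over the 11 arrays. Over probe sets, 788 of 45037 were called (1.75%), and 2603 with the block described next (5.78%).

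Among genes called lower, the median difference from WT was -1.43, and 190 of 245 fell by at least 1, 65 by at least 2, 23 by at least 3 and 8 by at least 4 on the log2 scale. Among genes called higher, the median was 1.22, and 131 of 196 rose by at least 1, 27 by at least 2 and 7 by at least 3. R397W and WT arrays did not overlap at 24.7% of all genes, among them all 441 called genes, which had been chosen on this difference. A lack of overlap at single called genes, given below, is therefore a description and no further support. The arrays carry numbers, and same-numbered arrays of different groups deviated together, so the number was also used as a block: this raised the count of called genes from 441 (2.42%) to 1421 (7.81% of genes), 773 lower (4.25%) and 648 higher (3.56%), and held all 441. Between the arrays numbered 1 alone, the median difference was -1.46 at the genes called lower and 1.3 at those called higher, and between the arrays numbered 2 it was -1.48 and 1.31. The count fell from 441 to 148 without R397W 1, 188 without R397W 2, 271 without WT 1 and 255 without WT 2. In RNA from a sorted population, fewer cells of a type and less RNA per cell cannot be told apart.

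Set against mock, the same genes gave a median of -0.019 (range -0.811 to 0.799) where R397W was lower than WT, and 230 of 245 lay within 0.5 of mock. Where R397W was higher than WT, the median over mock was 0.055 (range -1.15 to 0.857), and 184 of 196 lay within 0.5. For WT over mock the medians were 1.4 and -1.2. These comparisons share the R397W, WT or mock arrays with one another, so the values stand side by side as descriptions. Over all 45037 probe sets, limma called 0 between R397W and mock, with and without the block, and 829 (1.84%) had an unadjusted p under 0.05, whereas 4466 (9.92%) had one between R397W and WT. If no probe set differed and the p-values were calibrated, about a share of 0.05 would pass that unadjusted threshold. R397W against mock lay below it. The fit that gave these p-values leaves out the pairing of same-numbered arrays, so their calibration is not known. The count for mock therefore decides nothing about a difference. A missed threshold does not show that R397W and mock cells were alike. For Gpr83 the interval of R397W minus mock ran from -0.58 to 0.50, and for Lta, the cytokine lymphotoxin alpha, from -1.18 to 1.51.

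**Figure D1:**
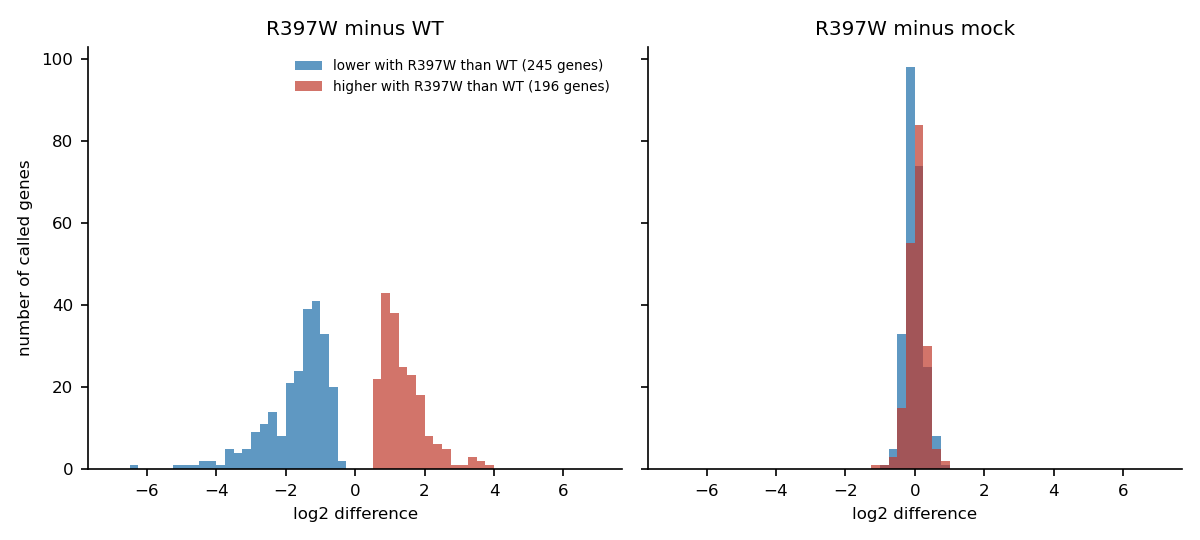
Number of called genes (y axis) by log2 difference (x axis) of R397W minus WT on the left and of R397W minus mock on the right, in blue for the 245 genes lower and in red for the 196 genes higher with R397W than WT. The genes were chosen on the left-hand difference, which leaves a gap around 0, and both panels use the R397W arrays; on the right, both colours lie between -1.15 and 0.857.

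Gpr83 (probe set 1439569_at) read 6.35, 6.46 and 5.90 on the WT arrays and -0.20 and 0.13 on the R397W arrays, a difference of -6.28 ± 0.24, adjusted p = 6.4e-06. Both R397W arrays lay close to 0, and no array of the 2 groups overlapped. Lta read 5.30, 5.49 and 3.99 on the WT arrays and 0.003 and 0.12 on the R397W arrays, 29.1-fold lower with R397W (-4.87 ± 0.60, adjusted p = 0.00298). WT 3 was the lowest WT array at both genes. To show what precedes 2 of the genes that fell most and 2 of those that rose most, the 250 bases before the start site are printed here from RefSeq (GRCm38.p6), on the gene's strand and 5′ to 3′, with capitals for matches to 3 motifs searched on both strands: forkhead (TGTTTAC), AP-1 (TGANTCA) and STAT (TTCNNNGAA). The 4 genes were chosen after their values and matches were seen, and Fcgrt encodes the IgG-binding chain of the neonatal Fc receptor.
Gpr83, chr9:14859960-14860209, plus strand: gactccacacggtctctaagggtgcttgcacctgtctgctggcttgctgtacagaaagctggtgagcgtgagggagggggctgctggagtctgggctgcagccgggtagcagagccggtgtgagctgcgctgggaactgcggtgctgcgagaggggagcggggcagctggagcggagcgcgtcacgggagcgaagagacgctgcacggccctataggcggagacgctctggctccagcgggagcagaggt
Lta, chr17:35205352-35205601, minus strand: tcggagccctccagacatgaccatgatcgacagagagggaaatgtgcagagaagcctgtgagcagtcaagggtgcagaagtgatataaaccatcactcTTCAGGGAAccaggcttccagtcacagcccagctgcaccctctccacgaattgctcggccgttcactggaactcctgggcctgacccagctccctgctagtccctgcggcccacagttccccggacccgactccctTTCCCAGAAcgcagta
Atp8b4, chr2:126491554-126491803, minus strand: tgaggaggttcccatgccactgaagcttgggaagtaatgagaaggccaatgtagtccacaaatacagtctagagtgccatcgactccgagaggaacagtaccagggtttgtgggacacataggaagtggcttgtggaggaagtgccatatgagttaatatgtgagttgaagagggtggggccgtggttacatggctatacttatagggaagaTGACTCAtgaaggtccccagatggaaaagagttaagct
Fcgrt, chr7:45103823-45104072, minus strand: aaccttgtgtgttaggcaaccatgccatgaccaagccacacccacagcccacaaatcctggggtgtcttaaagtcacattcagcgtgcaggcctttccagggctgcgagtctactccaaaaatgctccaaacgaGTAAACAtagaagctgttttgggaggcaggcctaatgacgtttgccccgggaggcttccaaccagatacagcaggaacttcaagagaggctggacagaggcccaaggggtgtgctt
Lta held 2 STAT matches, from -152 to -144 and from -16 to -8 relative to the start. Atp8b4 held an AP-1 match from -38 to -32, and Fcgrt a forkhead match on the opposite strand (GTAAACA) from -116 to -110. The window of Gpr83 held none of the 3 motifs, and no matches overlapped in these windows. Promoters were found for 189 of the 245 genes called lower and 160 of the 196 called higher. The forkhead motif was in 4.76% of the lower and 5.62% of the higher set, beside 3.54% of 27025 genes; the AP-1 motif in 8.47% and 8.12%, beside 7.82%; and the STAT motif in 11.6% and 7.5%, beside 8.13%. The 27025 are all genes with a RefSeq promoter, not only the 18193 tested on the arrays, so these shares compare unlike sets. A gene counted if the window before any of its start sites matched. A match is a description of letters, not evidence of binding.

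The other genes with the largest falls were of mixed function. Cyp4f18, which hydroxylates leukotriene B4, read 5.39, 5.49 and 5.04 on the WT arrays and 0.15 and 0.26 on the R397W arrays (-5.10 ± 0.32, adjusted p = 7.36e-05). Gzmc, a granzyme of cytotoxic granules, read 4.75, 4.89 and 4.45 on the WT arrays and 0.20 and 0.27 on the R397W arrays (-4.46 ± 0.25, adjusted p = 4.1e-05). Tnfrsf9, the costimulatory receptor 4-1BB, read 3.49, 4.39 and 4.30 on the WT arrays and -0.46 and 0.29 on the R397W arrays (-4.14 ± 0.33, adjusted p = 0.000267). At all 3 genes every WT array was above every R397W and mock array. Izumo1r, known as folate receptor 4 and a surface marker of Treg cells, read 3.52, 3.92 and 3.36 on the WT arrays and -0.17 and 0.097 on the R397W arrays (-3.64 ± 0.18, adjusted p = 4.05e-05). Gpr83 and Izumo1r are neighbours on the RefSeq assembly GRCm38.p6, with 0 annotated genes between them. The remaining falls of the 12 largest were those of Tgm2, a protein-crosslinking transglutaminase (-4.72 ± 0.43), Drc1, of the dynein regulatory complex (-4.36 ± 0.25), the pseudokinase Trib1 (-4.18 ± 0.33), the EGF-like growth factor Hbegf (-3.91 ± 0.48), the glycine decarboxylase Gldc (-3.68 ± 0.43) and the fatty acid elongase Elovl6 (-3.64 ± 0.34). Their adjusted p-values from limma ran from 5.96e-05 to 0.0027.

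The genes that rose most were low with WT FoxP3 and near the mock level with R397W. Atp8b4 read -3.76, -4.38 and -3.09 on the WT arrays and 0.13 and -0.089 on the R397W arrays (3.76 ± 0.39, adjusted p = 0.00118), and Fcgrt read -4.11, -3.93 and -3.74 on the WT arrays and -0.96 and 0.19 on the R397W arrays (3.54 ± 0.40, adjusted p = 0.00191). R397W 1 was the lower R397W array for Fcgrt, and still above every WT array. Klrd1, the CD94 chain of NK-cell receptors, read -3.63, -2.87 and -3.24 on the WT arrays and 0.44 and 0.033 on the R397W arrays (3.48 ± 0.32, adjusted p = 0.000579). Cxcr6, the receptor for the chemokine CXCL16, read -3.33, -2.97 and -3.34 on the WT arrays and 0.11 and 0.25 on the R397W arrays (3.40 ± 0.30, adjusted p = 0.00052). Tbc1d4, a GTPase-activating protein for Rab proteins, read -3.70, -3.63 and -2.34 on the WT arrays and 0.34 and 0.035 on the R397W arrays (3.42 ± 0.39, adjusted p = 0.00202). None of these 5 genes had overlapping groups, which follows from how they were chosen (24.7% of all genes did not overlap). WT 3 lay more than 1 log2 unit above the other WT arrays at Tbc1d4. Itga7, a laminin-binding integrin chain, was more spread, with -4.30, -3.31 and -3.33 on the WT arrays and -0.84 and 0.72 on the R397W arrays (3.59 ± 0.57, adjusted p = 0.0109). Next in size came Lypd6b (3.01 ± 0.19), Pik3ap1, an adaptor of phosphoinositide 3-kinase (2.95 ± 0.54), the cytochrome P450 Cyp2s1 (2.75 ± 0.20), Alox5ap, which serves 5-lipoxygenase in leukotriene synthesis (2.64 ± 0.30), Ifit1bl1 of the interferon-induced IFIT family (2.53 ± 0.30) and the ubiquitin ligase Rnf144a (2.53 ± 0.36). Their adjusted p-values from limma ran from 7.36e-05 to 0.0229. Calls that were lost with 1 array left out (limma, adjusted p in brackets) were lost without R397W 1 for Rnf144a (0.066), without R397W 2 for Itga7 (0.113), Pik3ap1 (0.195) and Rnf144a (0.0598), without WT 1 for Pik3ap1 (0.0624), without WT 2 for Pik3ap1 (0.0784) and without WT 3 for Pik3ap1 (0.0723).

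**Figure D2:**
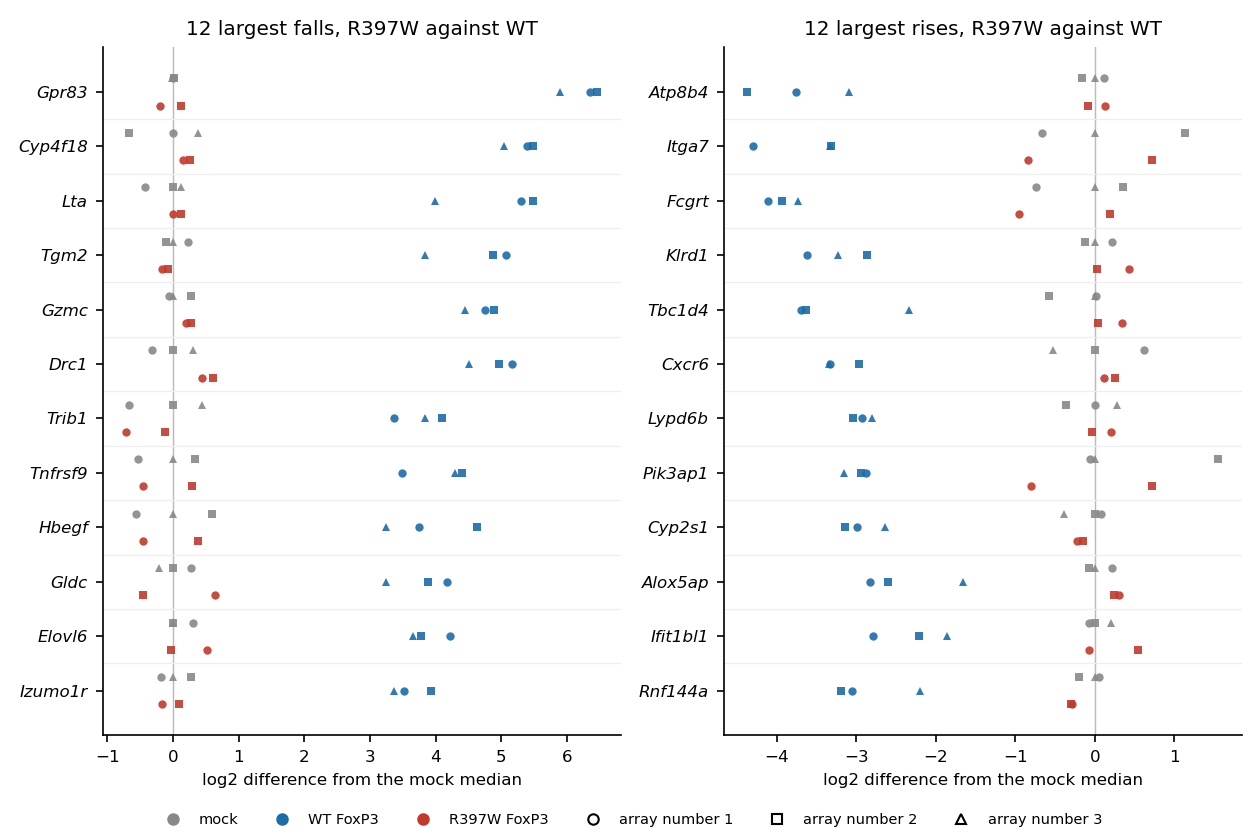
Log2 difference from the mock median (x axis) of the 12 genes with the largest falls (left) and the 12 with the largest rises (right), 1 point per array, coloured by group and shaped by array number. The R397W points lie among or near the mock points around 0 and apart from the WT points at all 24 genes. These genes were chosen as called and without overlap of R397W and WT, so the separation from WT was given by the choice.

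Of 34 measured genes known to be high in Treg cells, 13 were called lower with R397W, 0 higher and 21 neither way (1.35% of all genes were called lower and 1.08% higher), and 19 lower with the block (4.25% of all genes). The list's differences ran from -6.28 to 0.43 with a median of -1.15, beside 0.016 for all genes, and the list was written with earlier results of these data known. By array, the list's median was 1.31, 1.33 and 0.94 on the WT arrays and -0.028 and 0.15 on the R397W arrays. The groups did not overlap, and WT 3 was the lowest WT array. Besides Gpr83, Tnfrsf9 and Izumo1r, the called members included Socs2, an inhibitor of cytokine signalling (-3.52 ± 0.45, adjusted p = 0.00343), and Nt5e, the ectoenzyme CD73 that makes adenosine (-3.04 ± 0.28, adjusted p = 0.000563). Nt5e read 3.70, 3.38 and 3.51 on the WT arrays and 0.52 and 0.46 on the R397W arrays, so that the R397W arrays were close to each other and far below WT. Without R397W 1, and likewise without R397W 2, 11 members were called. Socs2 was not called without R397W 1 (limma, adjusted p = 0.0561).

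IL-2 signals through receptor chains alpha, beta and gamma to STAT5, which raises the receptor's own alpha chain and the feedback inhibitors of the SOCS family. Among 24 measured genes of this axis, 12 were called lower and 0 higher (1.35% and 1.08% of all genes). With the block 19 were called lower (4.25% of all genes), and the median was -1.81. Il2ra, the alpha chain, read 2.30, 1.95 and 1.95 on the WT arrays and 0.21 and -0.065 on the R397W arrays, 3.99-fold lower with R397W (-2.00 ± 0.16, adjusted p = 0.000309). Il2rb, the beta chain, read 2.71, 2.53 and 2.24 on the WT arrays and -0.21 and 0.24 on the R397W arrays (-2.48 ± 0.23, adjusted p = 0.000563). Cish, a SOCS-family inhibitor induced by STAT5, read 2.99, 3.25 and 2.77 on the WT arrays and 0.022 and 0.22 on the R397W arrays (-2.88 ± 0.21, adjusted p = 0.000161). At these 3 genes the R397W arrays lay below every WT array, with R397W minus mock at 0.12, 0.022 and 0.12. The gene for the ligand, Il2, read 0, 0 and -0.13 on the WT arrays and 0.43 and 0.41 on the R397W arrays. R397W was the higher group on every array, but its difference of 0.46 ± 0.12, adjusted p = 0.13 did not pass the test (95% interval 0.19 to 0.74). All cells had received recombinant IL-2. Without R397W 1, 9 list members were called lower, and without WT 2, 11.

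Receptors and ligands of the TNF superfamily moved in both directions, beside 1.35% of all genes called lower and 1.08% higher. Of the 19 receptors on the list, 4 were called lower and 0 higher, and Tnfrsf19, a receptor of the superfamily that the list does not hold and that was named after its values were seen, was called higher (2.29 ± 0.47, adjusted p = 0.0396). Besides Tnfrsf9, the lower ones were the costimulatory receptors Tnfrsf4, or OX40 (-2.01 ± 0.25, adjusted p = 0.00298), and Tnfrsf18, or GITR (-1.22 ± 0.15, adjusted p = 0.00314), and the BAFF and APRIL receptor Tnfrsf13b (-0.74 ± 0.16, adjusted p = 0.0466). Tnfrsf4 read 2.12, 2.49 and 2.27 on the WT arrays and -0.021 and 0.60 on the R397W arrays, without overlap. Of 13 ligands, 4 were called lower and 2 higher. Lta led those that fell, followed by Tnf (-3.15 ± 0.49, adjusted p = 0.0103), Tnfsf8, the CD30 ligand (-1.66 ± 0.28, adjusted p = 0.0151), and Ltb, which joins Lta in the membrane-bound lymphotoxin complex (-1.16 ± 0.18, adjusted p = 0.0107). Fasl, the death ligand of effector T cells, was among the higher ones, with -1.11, -1.60 and -1.16 on the WT arrays and -0.31 and 0.024 on the R397W arrays (1.15 ± 0.21, adjusted p = 0.0249). Some calls did not hold with 1 array left out (limma, adjusted p in brackets): they were lost without R397W 1 for Tnf (0.0725), Tnfsf8 (0.15), Ltb (0.107) and Fasl (0.089), without R397W 2 for Tnf (0.109), Tnfsf8 (0.0775) and Fasl (0.207), without WT 2 for Tnfsf8 (0.0602) and Fasl (0.0836) and without WT 3 for Tnfsf8 (0.0535) and Fasl (0.0512). Tnfrsf13b was called without mock 1, but in none of the other fits that left out 1 array (adjusted p up to 0.342). Tnfrsf19 was called without R397W 2, mock 1 and mock 2, but in none of the other fits that left out 1 array (adjusted p up to 0.302). Lower calls among ligands numbered 1 without R397W 1 and 2 without R397W 2.

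The list of inhibitory and costimulatory receptors of T cells, which also holds ligands and the ectoenzyme gene Nt5e, had 6 lower and 0 higher calls among 25 measured (6 and 1 with the block). Nt5e, described above, was among the 6. The shares over all genes were 1.35% and 1.08% (4.25% and 3.56% with the block). Ctla4, which binds CD80 and CD86 and restrains activation, read 2.13, 1.73 and 1.77 on the WT arrays and 0.29 and 0.56 on the R397W arrays (-1.45 ± 0.22, adjusted p = 0.00951). The checkpoint ligands Cd274, or PD-L1 (-2.12 ± 0.37, adjusted p = 0.0187), and Pdcd1lg2, or PD-L2 (-1.89 ± 0.26, adjusted p = 0.00521), were lower too, as was the costimulator Slamf1 (-2.06 ± 0.32, adjusted p = 0.0105). R397W arrays lay below all WT arrays at each of these genes. The median of the list was -0.055, close to that of all genes. Without R397W 1 the list had 1 lower call, without R397W 2 it had 2, and without WT 1 or WT 2 it had 4. Calls that were lost with 1 array left out (limma, adjusted p in brackets) were lost without R397W 1 for Ctla4 (0.111), Cd274 (0.176), Slamf1 (0.117) and Pdcd1lg2 (0.0539), without R397W 2 for Ctla4 (0.0525), Cd274 (0.0849) and Pdcd1lg2 (0.0607), without WT 1 for Cd274 (0.0581) and without WT 2 for Cd274 (0.0708).

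Transcription factors that act with FoxP3 or in effector Treg cells were lower at a few genes. Irf4, a factor needed by effector Treg cells, read 2.98, 1.93 and 1.81 on the WT arrays and 0.11 and -0.49 on the R397W arrays (-2.43 ± 0.46, adjusted p = 0.027). Its other probe set gave -0.19 ± 0.17 (limma, adjusted p = 0.856). Ikzf2, or Helios, read 1.98, 1.62 and 2.26 on the WT arrays and 0.47 and 0.26 on the R397W arrays (-1.59 ± 0.22, adjusted p = 0.00508). Both genes separated the groups, R397W below WT. Also lower were Bhlhe40 (-2.67 ± 0.42, adjusted p = 0.0108), the Ikaros-family factor Ikzf3, or Aiolos (-1.42 ± 0.22, adjusted p = 0.0102), and the bZIP factors Maff (-2.31 ± 0.42, adjusted p = 0.0238) and Jdp2 (-0.88 ± 0.18, adjusted p = 0.0364). Irf7, a factor of the interferon response, was higher (1.21 ± 0.16, adjusted p = 0.00354). Batf, an AP-1 family partner of Irf4, read -0.14, 0.55 and 0.47 on the WT arrays and -1.30 and -0.28 on the R397W arrays; its difference of -1.08 ± 0.36, adjusted p = 0.254 did not pass the test, but was called with the block (adjusted p = 0.00267). R397W 1 and R397W 2 were a log2 unit apart there. Of 25 effector and tissue Treg genes, 4 were called lower and 0 higher, among them Itgae, the integrin chain CD103 (-2.86 ± 0.29, adjusted p = 0.00105); with the block it was 9 lower and 1 higher. Of 22 AP-1, BATF and IRF factors, 3 were called lower and 1 higher (7 and 1 with the block), and of 40 other FoxP3 partners and Treg regulators, 2 lower and 0 higher (7 and 1 with the block). Over all genes, 1.35% were called lower and 1.08% higher (4.25% and 3.56% with the block). Some calls did not hold with 1 array left out (limma, adjusted p in brackets): they were lost without R397W 1 for Irf4 (0.107), Bhlhe40 (0.123), Ikzf3 (0.0555) and Maff (0.205), without R397W 2 for Irf4 (0.21), Ikzf3 (0.114), Maff (0.111), Irf7 (0.0526) and Ikzf2 (0.0655), without WT 1 for Irf4 (0.068) and without WT 2 for Irf4 (0.0642). Jdp2 was called without WT 3, A384T 1, A384T 2 and mock 2, but in none of the other fits that left out 1 array (adjusted p up to 0.249). The effector list had 1 lower call without R397W 1 and 2 without R397W 2.

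Genes induced early by the T cell receptor (TCR) held 4 lower and 0 higher calls among 29, with a median of -0.78, and the block raised the lower calls to 14. The shares over all genes were 1.35% lower and 1.08% higher (4.25% and 3.56% with the block). Spry1, a feedback inhibitor of receptor signalling, read 2.49, 2.90 and 1.65 on the WT arrays and -0.31 and -0.66 on the R397W arrays (-2.83 ± 0.37, adjusted p = 0.00403). Cd69, an early activation marker that retains cells in tissue, read 2.49, 2.10 and 2.58 on the WT arrays and -0.36 and 0.28 on the R397W arrays (-2.43 ± 0.46, adjusted p = 0.0264). R397W arrays lay below WT arrays at both, and the other calls were Nfkbia and Nfkbiz. NF-kappaB genes showed the same kind of count, with 3 of 22 called lower and 0 higher, 12 lower with the block, and a median of -0.60. These were the inhibitor Nfkbia (-1.69 ± 0.27, adjusted p = 0.0109), Nfkbiz (-2.55 ± 0.53, adjusted p = 0.0433) and the inhibitor-of-apoptosis gene Birc3 (-1.49 ± 0.26, adjusted p = 0.0182). Of 30 genes of TCR signalling itself, 1 was called higher and 0 lower, the phosphatase Ptpn22, which dampens that signalling (1.41 ± 0.14, adjusted p = 0.000993), and 5 higher and 3 lower with the block. Among 33 regulators of PI3 kinase and MAP kinases, 3 were called lower and 1 higher, including Spry1, Trib1 and Spred2 (-0.98 ± 0.19, adjusted p = 0.0311) on the lower side and Pik3ap1 on the higher; with the block it was 7 and 5. Calls that were lost with 1 array left out (limma, adjusted p in brackets) were lost without R397W 1 for Cd69 (0.224) and Nfkbia (0.113), without R397W 2 for Spry1 (0.0559), Cd69 (0.0957), Nfkbia (0.0716) and Birc3 (0.169), without WT 1 for Cd69 (0.0824) and Birc3 (0.0624), without WT 2 for Cd69 (0.0646) and Birc3 (0.0597) and without WT 3 for Cd69 (0.085) and Birc3 (0.0545). Nfkbiz was called without mock 1, but in none of the other fits that left out 1 array (adjusted p up to 0.337). Spred2 was called without WT 2, A384T 1, A384T 3, mock 1 and mock 3, but in none of the other fits that left out 1 array (adjusted p up to 0.238).

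Genes that are low in Treg cells and high in conventional T cells split. Of 17 measured, 4 were called higher and 2 lower (7 and 2 with the block), and the median was 0.46. Over all genes, 1.08% were called higher and 1.35% lower (3.56% and 4.25% with the block). Il4, the cytokine of Th2 cells, read -1.73, -2.41 and -2.03 on the WT arrays and 0.028 and -0.30 on the R397W arrays (1.92 ± 0.22, adjusted p = 0.00194). Pde3b, a cyclic AMP phosphodiesterase, read -1.86, -1.71 and -1.32 on the WT arrays and 0.14 and 0.20 on the R397W arrays (1.80 ± 0.19, adjusted p = 0.00151). Both were higher with R397W without overlap, as was Ptpn22. Id3, an inhibitor of E proteins, ran the other way with 2.35, 2.45 and 2.17 on the WT arrays and -0.23 and -0.055 on the R397W arrays (-2.46 ± 0.24, adjusted p = 0.000889), as did Tnf. Il7r, the IL-7 receptor that is low on most Treg cells, differed by 0.72 ± 0.38, adjusted p = 0.623, which did not pass the test (95% interval -0.13 to 1.56); with the block it was called (adjusted p = 0.0244).

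Of 17 Th1 genes, 3 were called higher and 0 lower (1.08% and 1.35% of all genes), and 3 higher and 1 lower with the block. Those called higher by limma without the block were the IL-18 receptor chains Il18r1 (1.83 ± 0.27, adjusted p = 0.00718) and Il18rap (1.85 ± 0.26, adjusted p = 0.00528) and Fasl. Il18rap read -2.23, -2.27 and -2.16 on the WT arrays and -0.19 and -0.54 on the R397W arrays, with R397W above WT throughout. Ifng, the signature cytokine of Th1 cells, differed by 0.17 ± 0.14, adjusted p = 0.822, which did not pass the test (95% interval -0.13 to 0.48). Of 17 Th2 genes, Il4 alone was called (2 higher and 1 lower with the block), and of 12 Th17 genes none was, by limma, with 3 called lower with the block. With the block, 3.56% of all genes were called higher and 4.25% lower. Of 36 cytokines and chemokines, 5 were called lower and 1 higher (8 and 1 with the block). The falls included Osm, or oncostatin M (-1.75 ± 0.16, adjusted p = 0.000563), besides Lta, Tnf and Hbegf. The Th1 list had 0 higher calls without R397W 1, 1 without R397W 2, and 2 without WT 2 or WT 3. Without R397W 1, 3 of these cytokines were called lower. Some calls did not hold with 1 array left out (limma, adjusted p in brackets): they were lost without R397W 1 for Il18rap (0.0747) and Il18r1 (0.0832) and without R397W 2 for Il18r1 (0.0588).

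Genes of migration, adhesion and killing moved in both directions. The shares over all genes were 1.08% higher and 1.35% lower (3.56% and 4.25% with the block). Among 26 chemokine and homing receptors, Cxcr6 and Ccr2 (1.51 ± 0.30, adjusted p = 0.0352) were called higher and the prostaglandin E2 receptor Ptger4 lower (-1.62 ± 0.27, adjusted p = 0.0155), with 6 higher and 3 lower with the block. Among 30 integrins and adhesion genes, 2 were called higher, Itga7 and Itgal, the alpha chain of LFA-1 (0.68 ± 0.12, adjusted p = 0.0232), and 2 lower, Itgae and Cd2 (-0.61 ± 0.11, adjusted p = 0.0228), with 4 and 4 with the block. Itgae, whose product holds lymphocytes at epithelia, read 3.28, 2.50 and 3.45 on the WT arrays and 0.26 and 0.17 on the R397W arrays, so that the groups were well apart. Among 24 cytotoxic granule genes and NK-type receptors, Klrd1 was called higher and Gzmc and the serpins Serpinb6b (-1.20 ± 0.22, adjusted p = 0.0252) and Serpinb9 (-0.94 ± 0.19, adjusted p = 0.0399) lower, with 2 higher and 4 lower with the block. Serpinb9 inhibits granzyme B. Calls that were lost with 1 array left out (limma, adjusted p in brackets) were lost without R397W 1 for Ptger4 (0.13), Itgal (0.127), Cd2 (0.213) and Serpinb6b (0.138), without R397W 2 for Ptger4 (0.111), Itgal (0.174), Cd2 (0.0701) and Serpinb6b (0.181), without WT 1 for Ptger4 (0.0568), Itgal (0.057), Cd2 (0.0531) and Serpinb6b (0.0847), without WT 2 for Ptger4 (0.0658), Itgal (0.0696), Cd2 (0.0875) and Serpinb6b (0.0753) and without WT 3 for Cd2 (0.0644). Ccr2 was called without A384T 1, A384T 2, A384T 3, mock 1 and mock 2, but in none of the other fits that left out 1 array (adjusted p up to 0.273). Serpinb9 was called without A384T 1, A384T 3, mock 2 and mock 3, but in none of the other fits that left out 1 array (adjusted p up to 0.306).

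Interferon-stimulated genes gave 4 higher and 4 lower calls among 35 (7 and 6 with the block). Over all genes, 1.08% were called higher and 1.35% lower (3.56% and 4.25% with the block). The guanylate-binding proteins Gbp2 (-1.39 ± 0.28, adjusted p = 0.0359), Gbp3 (-2.48 ± 0.26, adjusted p = 0.00137) and Gbp7 (-1.72 ± 0.20, adjusted p = 0.00194) and the immunity-related GTPase Iigp1 (-2.09 ± 0.40, adjusted p = 0.03) were lower with R397W. Outside the list and named after their values were seen, Ifitm3 (-2.62 ± 0.27, adjusted p = 0.00129), Ifitm2 (-1.93 ± 0.35, adjusted p = 0.0226) and Plscr1 (-1.01 ± 0.21, adjusted p = 0.0415), also induced by interferon, were lower too. Ifit1bl1, likewise outside the list, was higher (2.53 ± 0.30, adjusted p = 0.00228). Genes outside the list are examples and give no direction for interferon-stimulated genes as a group. Oas3, a sensor of double-stranded RNA, was among the higher members (1.64 ± 0.27, adjusted p = 0.013), with Irf7. Gbp3 read 3.14, 2.83 and 2.88 on the WT arrays and 0.13 and 0.83 on the R397W arrays, and Oas3 -1.86, -2.11 and -1.77 on the WT arrays and -0.67 and 0.11 on the R397W arrays. In each case the groups did not overlap. In lipid mediator pathways, 25 genes held 2 lower calls, Cyp4f18 and Ptger4, and 1 higher, Alox5ap (3 and 3 with the block). In the TGF-beta pathway, 26 genes held 1 lower, the repressor Skil (-1.44 ± 0.18, adjusted p = 0.00265), and 1 higher, the activin receptor Acvr2a (1.42 ± 0.21, adjusted p = 0.00888), with 4 each way with the block. Some calls did not hold with 1 array left out (limma, adjusted p in brackets): they were lost without R397W 1 for Acvr2a (0.108) and Ifitm2 (0.211), without R397W 2 for Irf7 (0.0526) and Oas3 (0.126), without WT 1 for Ifitm2 (0.0532), without WT 2 for Oas3 (0.058) and without WT 3 for Ifitm2 (0.0661). Gbp2 was called without WT 3, A384T 2 and A384T 3, but in none of the other fits that left out 1 array (adjusted p up to 0.29). Iigp1 was called without R397W 2, A384T 1, A384T 2, A384T 3 and mock 1, but in none of the other fits that left out 1 array (adjusted p up to 0.181). Plscr1 was called without R397W 2 and A384T 3, but in none of the other fits that left out 1 array (adjusted p up to 0.318).

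Of 41 genes of DNA replication and the cell cycle, none was called by limma, and with the block 15 were called lower. The shares over all genes were 1.35% lower and 1.08% higher, and 4.25% and 3.56% with the block. Their median difference was -0.79, and the array medians were 1.58, 0.31 and 0.32 for WT and 0.18 and -0.043 for R397W. WT 1 stood far above the other WT arrays, and both R397W arrays were below all of them. The mitotic regulators Birc5 (-2.36 ± 0.69, adjusted p = 0.174) and Ccnb2 (-2.26 ± 0.86, adjusted p = 0.368) had the largest differences of that list, and both were called with the block (adjusted p = 0.00155 and adjusted p = 0.000348). Glycolysis and hypoxia genes also differed between array numbers. Their medians were -0.84 on R397W 1 and 0.27 on R397W 2, and -0.78, -0.54 and -0.36 on the WT arrays, so the groups overlapped. In this list of 29 genes, the hypoxia-inducible factor Epas1 was called higher (2.50 ± 0.24, adjusted p = 0.000728), and 8 were higher and 2 lower with the block. The part of these array differences in the other results was not tested.

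**Figure D3:**
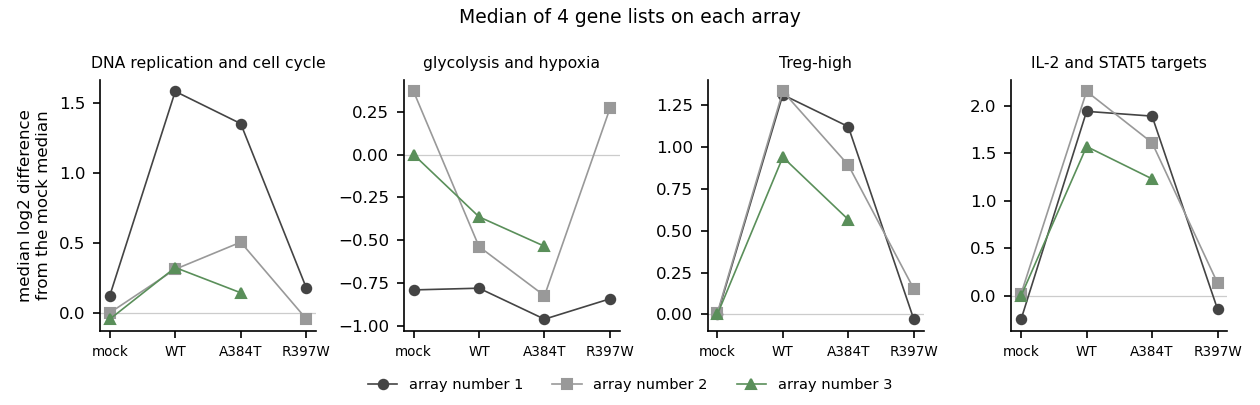
Median log2 difference from the mock median (y axis, a scale for each panel) of 4 gene lists, by group (x axis), with arrays of the same number joined by a line; there is no R397W array numbered 3. In the Treg-high and IL-2 panels both R397W points lie near 0 and below the WT points, whereas in the glycolysis panel the R397W points are apart at -0.84 and 0.27.

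Other cell functions are given with their counts. Over all genes, 1.35% were called lower and 1.08% higher, and 4.25% and 3.56% with the block. Among 25 oxidative phosphorylation genes 1 was called lower, Uqcrq of complex III (-0.88 ± 0.16, adjusted p = 0.0219), and 1 higher, Ndufb8 of complex I (0.51 ± 0.10, adjusted p = 0.0364), with 2 lower and 1 higher with the block. At both Uqcrq and Ndufb8, every other probe set of the gene had the opposite sign and no call. Among 29 genes of the unfolded protein and stress response, 2 were called lower, the factor Xbp1 (-1.77 ± 0.21, adjusted p = 0.00226) and Herpud1 of endoplasmic reticulum degradation (-0.82 ± 0.17, adjusted p = 0.0399), with 2 lower and 1 higher with the block. Mcl1, a survival gene, was the 1 member of 15 of the BCL-2 family called lower (-0.97 ± 0.17, adjusted p = 0.0207), with 4 lower and 1 higher with the block. Of 17 serine and one-carbon genes, Gldc was called lower (2 lower with the block). Limma called none of 17 cholesterol synthesis genes and none of 19 p53 targets; with the block it called 1 higher in the first and 2 each way in the second. Of 20 genes of cyclic AMP signalling, 1 was called higher, Pde3b, and 3 higher and 1 lower with the block. Among 23 naive and memory T cell genes, Id3 was called lower, and 5 higher and 2 lower with the block. Calls that were lost with 1 array left out (limma, adjusted p in brackets) were lost without R397W 1 for Mcl1 (0.202) and Uqcrq (0.211), without R397W 2 for Uqcrq (0.0555), without WT 1 for Mcl1 (0.0582) and Uqcrq (0.0629), without WT 2 for Mcl1 (0.0781) and Uqcrq (0.0844) and without WT 3 for Uqcrq (0.0607). Ndufb8 was called in none of the fits that left out 1 array (adjusted p up to 0.286). Herpud1 was called without A384T 1, A384T 3 and mock 3, but in none of the other fits that left out 1 array (adjusted p up to 0.251).

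**Figure D4:**
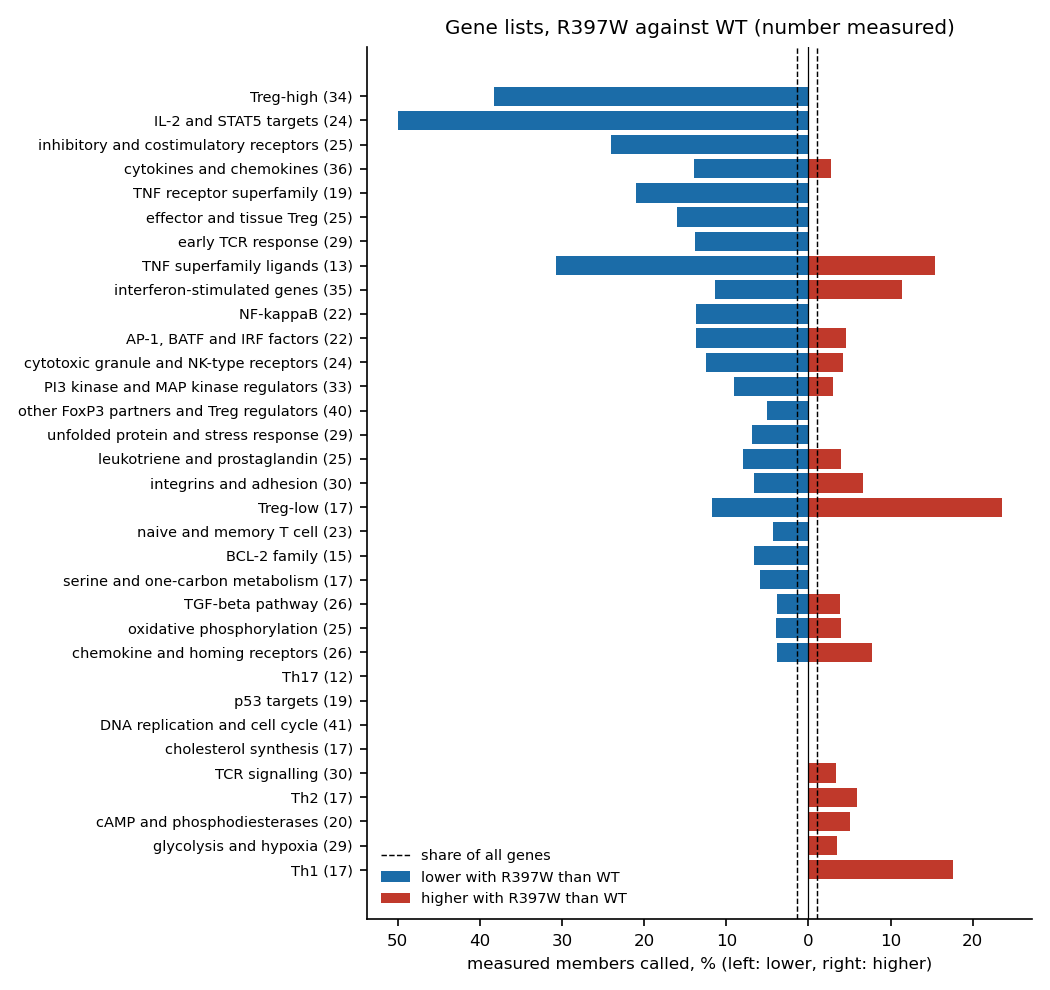
Share of measured members (x axis, in percent) called lower (blue, to the left) or higher (red, to the right) with R397W than WT, for the 33 lists of T cell genes and cell functions, with the number measured in brackets. Dashed lines mark the shares over all genes, 1.35% lower and 1.08% higher; the bars for IL-2 and STAT5 targets (12 of 24) and Treg-high genes (13 of 34) reach farthest to the left.

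Markers of other cell types, which the spleen feeders or an impure sort may add, were counted in 7 lists. Over all genes, 2.42% were called in either direction, and 7.81% with the block, and the marker counts are to be read beside these shares. None of 13 B cell, 14 granulocyte and mast cell, or 10 CD8, NK and gamma-delta T cell markers was called by limma, with or without the block. These counts cover the list members alone. Klrd1, of NK-cell receptors but held in another list, was called higher (3.48 ± 0.32, limma, adjusted p = 0.000579), and other genes of such cells outside the lists were not counted. Fcgr3, an Fc receptor of macrophages, was the 1 called of 25 macrophage and dendritic markers, higher with R397W (1.72 ± 0.23, adjusted p = 0.00455). Gata1, a factor of erythroid cells, was the 1 called of 10 erythroid and platelet markers and read 2.41, 2.23 and 1.95 on the WT arrays and -0.55 and -0.42 on the R397W arrays (-2.68 ± 0.17, adjusted p = 7.38e-05). Both R397W arrays lay below 0 and every WT array above it. Of 10 MHC class II and antigen presentation markers none was called, but with the block 2 were called higher and 2 lower, among them H2-Ab1 (1.02 ± 0.37, adjusted p = 0.326, with the block adjusted p = 0.0177) and H2-DMb2 (-0.95 ± 0.22, adjusted p = 0.0748, with the block adjusted p = 0.00662). Of 18 fibroblast and endothelial markers none was called, and 2 lower with the block, with Col1a2 at -2.23 ± 0.57, adjusted p = 0.107 and adjusted p = 0.00301 with the block. The summed level of a marker list cannot be had from values centred on mock, and the part of such cells in the results was not tested. Fcgr3 was not called without R397W 2 (limma, adjusted p = 0.0559).

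The direct comparison of R397W with A384T, the other forkhead mutant, called 661 probe sets (1.47%) and 387 genes (2.13%), and 2568 probe sets (5.7%) with the block. The 661 fell to 197 without R397W 1, 227 without R397W 2, 396 without A384T 1 and 386 without A384T 2. Genes lower with R397W than WT had a median of -1.2 against A384T, and those higher had 0.957; these contrasts share the R397W arrays. At the lead genes the mutants were far apart. Gpr83 read 6.30, 5.45 and 5.65 on the A384T arrays, and R397W minus A384T was -5.84 ± 0.24, adjusted p = 1.31e-05. For Lta, the A384T arrays read 6.59, 5.87 and 4.26 and R397W minus A384T was -5.51 ± 0.60, adjusted p = 0.00168, and for Il2ra the difference was -2.06 ± 0.16, adjusted p = 0.000354. These A384T values lay among or near those of the WT arrays. Itgae lay between, with 2.37, 1.56 and 2.01 on the A384T arrays, and R397W was lower still (-1.77 ± 0.29, adjusted p = 0.015).

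At a few genes both mutants departed from WT, and the fit without the block called no difference between them. Gpld1, a phospholipase that cleaves GPI anchors, read 3.26, 3.38 and 2.75 on the WT arrays and -0.19, -0.085 and -0.37 on the A384T arrays and -0.26 and -0.086 on the R397W arrays. R397W minus WT was -3.30 ± 0.18, adjusted p = 4.1e-05, A384T minus WT -3.35 ± 0.16, adjusted p = 5.68e-05, and R397W minus A384T 0.043 ± 0.18, adjusted p = 0.973, with an interval from -0.36 to 0.44. Gpld1 and Cyp11a1, the enzyme that starts steroid synthesis, were chosen after their values were seen. For Nt5e, A384T minus WT was -2.58 ± 0.25, adjusted p = 0.00737 and R397W minus A384T -0.47 ± 0.28, adjusted p = 0.656 (95% interval -1.08 to 0.15). Tbc1d4 gave 2.54 ± 0.35 for A384T minus WT (adjusted p = 0.0363) and 0.88 ± 0.39, adjusted p = 0.483 between the mutants (95% interval 0.0075 to 1.75). Irf7 gave 0.96 ± 0.14 (adjusted p = 0.0436) and 0.25 ± 0.16, adjusted p = 0.682 (95% interval -0.098 to 0.60). The intervals for Nt5e and Irf7 include 0, and that for Tbc1d4 starts just above it. Cyp11a1, for which A384T minus WT was -1.77 ± 0.25, adjusted p = 0.0403, read 2.44, 2.13 and 2.21 on the WT arrays and 1.11, 0.29 and 0.073 on the A384T arrays and -0.53 and -0.63 on the R397W arrays, so that R397W lay below A384T on every array; the difference of -1.07 ± 0.28, adjusted p = 0.126 was called with the block (adjusted p = 0.00336). A384T 1 stood above the other A384T arrays there. Pde3b likewise passed with the block alone, with 0.73 ± 0.19, adjusted p = 0.132 between the mutants and adjusted p = 0.0104 with the block; A384T minus WT was not called there (1.07 ± 0.17, adjusted p = 0.0756). Where the test was missed, it does not show that the mutants acted alike.

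**Figure D5:**
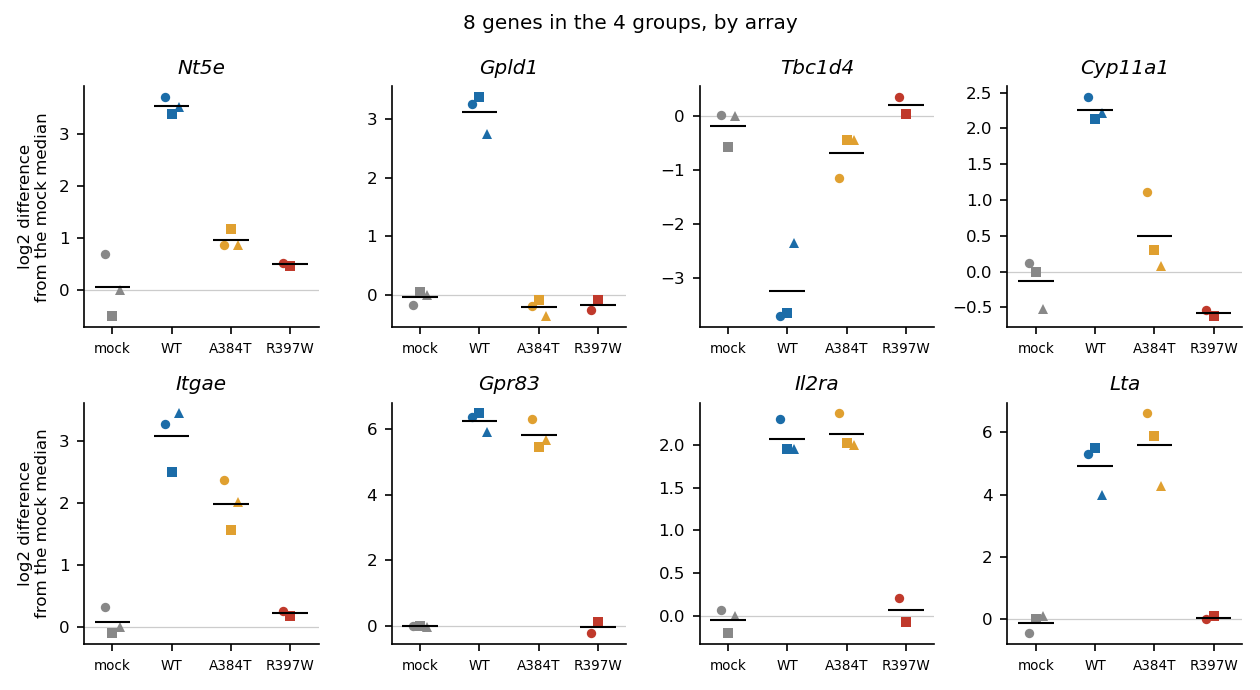
Log2 difference from the mock median (y axis, a scale for each gene) of 8 genes on each array, with circles, squares and triangles for array numbers 1, 2 and 3 and a bar for each group's mean. A384T points lie with R397W at Gpld1, between R397W and WT at Itgae and Cyp11a1, and with WT at Gpr83, Il2ra and Lta.

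Some genes were measured by several probe sets. Of 263 called genes with more than 1 probe set, another was called in the same direction for 100, had the opposite sign for 46, and was called in the opposite direction for 0. Among the genes described here, Cyp4f18, Nt5e, Cyp11a1, Ikzf2, Jdp2, Nfkbia, Uqcrq and Ndufb8 had such a probe set of opposite sign, none of them called. At Uqcrq all other probe sets were of opposite sign (0.048, 0.23 and 0.20), and at Cyp4f18, Jdp2 and Ndufb8 the only other one was. At others the second probe set had the same sign but a far smaller difference and no call. These included Irf4 (-0.19 ± 0.17), Trib1 (-0.035 ± 0.13), Iigp1 (-0.23 ± 0.19), Skil (-0.23 ± 0.21), Atp8b4 (0.75 ± 0.20) and Pik3ap1 (0.74 ± 0.40). Of 10092 probe sets without a single gene symbol, 37 were called higher and 53 lower, and these are not named here.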

How the data were processed

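RNA of 11 samples was hybridised to Affymetrix arrays, of which the 2 R397W and 3 WT arrays were compared. The authors deposited log2 values from RMA (per the submitters' processing notes, without a version), which corrects background, normalizes by quantiles and summarizes the probes of a probe set; the base of the logarithm is not stated and was taken as 2. At each of the 45101 probe sets deposited, the mock arrays had a median of exactly 0, so the values had been centred on mock by a step that no source used here describes, and no filter on low values was possible. After 64 control probe sets were left out, limma (3.58.1, R 4.3.3) fitted 1 mean per group to 45037 probe sets over all 11 arrays (7 residual degrees of freedom, median residual SD 0.173), with eBayes and Benjamini-Hochberg adjustment. Gene symbols came from the platform annotation (34958 probe sets with 1 symbol, 932 with several, 9211 with none listed), and Entrez identifiers of 34741 matched RefSeq (GRCm38.p6), which changed 0 symbols. The choice of the probe set with the largest SD favours larger differences at the 9010 genes with several.

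The numbers in the titles were taken to pair arrays, because all same-numbered arrays of different groups deviated from their group means together (correlations 0.107 to 0.718 over probe sets, against at most 0.344 for different numbers); the labels do not say what a number stands for. These ranges overlap, and A384T 2 correlated less with mock 2 (0.107) and WT 2 (0.177) than with mock 3 (0.283) and WT 3 (0.276). Blocked values come from a fit with the number as a term (5 residual degrees of freedom). Alternatives were the block, a random block, only the 2 groups, leaving out arrays, other probe set rules and other limma options. The genes named were Foxp3, Batf, Irf4, Il2ra, Ctla4, Gpr83, Il2, Ifng and Il7r, the 12 largest rises and falls, and up to 5 called members of each of 40 gene lists (or 2 where none was called). The 12 rises and 12 falls were taken among called genes whose R397W and WT arrays did not overlap. The members and lists were chosen with earlier results of these data known. The lists held 753 measured genes, 147 of them in more than 1 list. Python 3.11.15 with pandas 2.3.3 made the tables, and matplotlib 3.10.9 the figures.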

Additional observations from a re-analysis of the deposited data

How the results depend on the processing

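Blocking on the array number, which uses the pairing, gave 2603 probe sets, 1421 genes and 199 list genes between R397W and WT, in place of 788, 441 and 80, and 2568 probe sets between R397W and A384T in place of 661. As a random block, the number gave 1452, 790, 121 and 1458, and as a block over the arrays numbered 1 and 2 alone, chosen after seeing the data, 2056, 1151, 179 and 2172. With the arrays of only the 2 groups compared, the counts were 329, 189, 49 and 118, in a fit with fewer arrays. A required difference of at least 1 log2 left 517 probe sets. Leaving out 1 array at a time gave 252 to 795 probe sets, 148 to 441 genes, 42 to 85 list genes and 47 to 78 of 82 named genes called between R397W and WT, and 197 to 629 probe sets between R397W and A384T. Leaving out every array numbered 1 gave 181, 114, 33, 36 and 97. The cause of these shifts, including the part of the smaller number of arrays, was not tested. R397W over mock had 0 calls in all alternatives run. Of 98 single genes given in the text, 0 changed sign in any alternative, and 42 of the 88 called were called in every fit without 1 array. The values were centred, so signal over background and a filter on low values could not be had.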
